A study of Mus musculus with 12 samples.

Results

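Livers of mice that had lost both Dscr-1 and ApoE (double null) were compared with wild-type (WT) livers. The comparison used 4 of the 12 arrays of the series, 2 per genotype. These arrays were taken by their titles, but the comparison was chosen with earlier results of these data known. The double null mice carried null alleles of both genes, and the WT mice carried neither. Livers of ApoE null and Dscr-1 null mice, 2 arrays each, are given beside them and share in the estimate of the spread between arrays. The mice behind all 8 liver arrays were adult C57BL/6J animals. Their labels give a high-fat diet for 12 weeks for every genotype, WT included, whereas the text of the study describes normal chow for the liver arrays, and the files do not settle which is right. WT mice are described both as bought animals and as littermates on the diet, and no source used here says which of these the WT arrays came from. The design text calls the 2 arrays of a genotype independent experiments without naming separate animals, so p-values measure only the spread between these arrays.

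ApoE is a protein of very-low-density lipoprotein and chylomicron remnants that hepatocytes bind to clear them from blood. Mice without it accumulate remnants in plasma. Dscr-1, whose gene is now named Rcan1, binds the phosphatase calcineurin and restrains the activation of the transcription factor NFAT. The liver is made mostly of hepatocytes, which synthesize plasma proteins, oxidize fatty acids and turn cholesterol into bile acids, together with Kupffer cells, the resident macrophages of the sinusoids, and endothelial, stellate and biliary cells.

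RNA was measured with an Affymetrix mouse array on which a gene is read by 1 or more probe sets. Each deposited value is a signal on a linear scale, scaled so that an array's trimmed average is 100. The arrays had medians of 37.6 and 37.6 in double null livers and 32.2 and 34.7 in WT livers, so a signal below about 40 is dim. The correlation of an array with the other liver arrays averaged 0.875 to 0.885, except for 0.839 for array 1 of the ApoE null livers. Levels were compared as log2(signal + 16), which understates differences between dim signals, and 14758 genes passed the filter on dim probe sets. The defining products of hepatocytes were among the brightest signals. Alb, the gene of albumin, had a signal of 35041.6 and 33216.4 in double null livers, against 27526.8 and 36918.1 in WT livers. Of 17 tested hepatocyte genes 12 were higher and 5 lower, with a median log2 difference of 0.10.

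The level of Apoe checks the ApoE labels. Its signal was 83.7 and 79.8 in double null livers, against 20045.3 and 19962.9 in WT livers, a mean of 81.8 ± 2.76 in double null livers and 20004 ± 58.3 in WT livers (SD, n = 2 each). Apoe was thus lower on both double null arrays by a log2 difference of −7.68 (SE 0.38, limma with Benjamini-Hochberg adjustment over all probe sets, adjusted p = 0.00154). Without either WT array the difference was again −7.68, with limma adjusted p of 0.0571 and 0.0568. The genes beside it were not lowered to any such degree. Of the 5 genes on either side, 9 were tested and differed by −0.39 to 0.66 on the log2 scale. Apoc1, the nearest, which encodes another apolipoprotein, had a signal of 17222.6 and 12625.6 in double null livers and 15302.3 and 14994.9 in WT livers.

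Rcan1 was not lower in the livers labelled double null. The brighter of its 2 probe sets had a signal of 491.5 and 209.5 in double null livers, against 210.0 and 133.7 in WT livers, a log2 difference of 0.88 (SE 0.60, limma adjusted p = 0.928), with the second double null array just under the first WT array. The dimmer one had 44.7 and 21.8 in double null livers and 19.6 and 46.9 in WT livers. No source used here says whether these probe sets fall inside the deletion. They are therefore no check of the Dscr-1 genotype, and every direction below rests on the sample labels. The tested neighbours of Rcan1, 8 of the 10 nearest genes, differed by −0.81 to 0.89. The NFAT genes had log2 differences of −0.54 for Nfatc1, 0.51 for Nfatc2, 0.18 for Nfatc3 and 1.13 for Nfatc4, and the lowest adjusted p among them was 0.827 (limma). Of the 15 genes of the list that holds Rcan1, Apoe, calcineurin subunits and NFAT members, 9 were higher and 6 lower, with a median of 0.06.

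Between double null and WT livers 1 gene rose and 1 fell past an adjusted p of 0.05 (limma), 0.00678% of the 14758 tested genes in each direction. They were Ang and Apoe. At an unadjusted p under 0.05, 518 genes were higher (3.51%) and 263 lower (1.78%). Genes were also described by a rule of size with no test. In 229 genes (1.55%) all 4 differences between a double null and a WT array exceeded 2-fold upward, and in 110 genes (0.745%) all 4 exceeded 2-fold downward. This excess of genes on the upper side depended on the scaling, since the counts were 188 and 146 with quantile normalization and 169 and 163 with array medians made equal. Arrays of the genotypes did not overlap in 2900 genes that were higher (19.7%) and 2742 that were lower (18.6%). Counting every tested gene, 7501 (50.8%) had a difference above 0, and the median was 0.01.

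Most genes of the size rule were dim. Of the 229, 65 had a mean double null signal over 100, and the median WT signal of all 229 was 8.9. Of the 110, 19 had a mean WT signal over 100. A second probe set above the filter was on hand for 26 of the 65 brighter raised genes. Of these 48 further probe sets 38 were also higher, 9 of them over 2-fold in every pair, with a median log2 difference of 0.41. Of all tested genes 50.8% were higher and 1.55% over 2-fold higher in every pair. For the 19 brighter lowered genes, 7 had further probe sets, and 5 of these 9 were lower, none of them over 2-fold in every pair. Their median log2 difference was −0.03, so as a group they did not repeat the lower level.

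**Figure D1:**
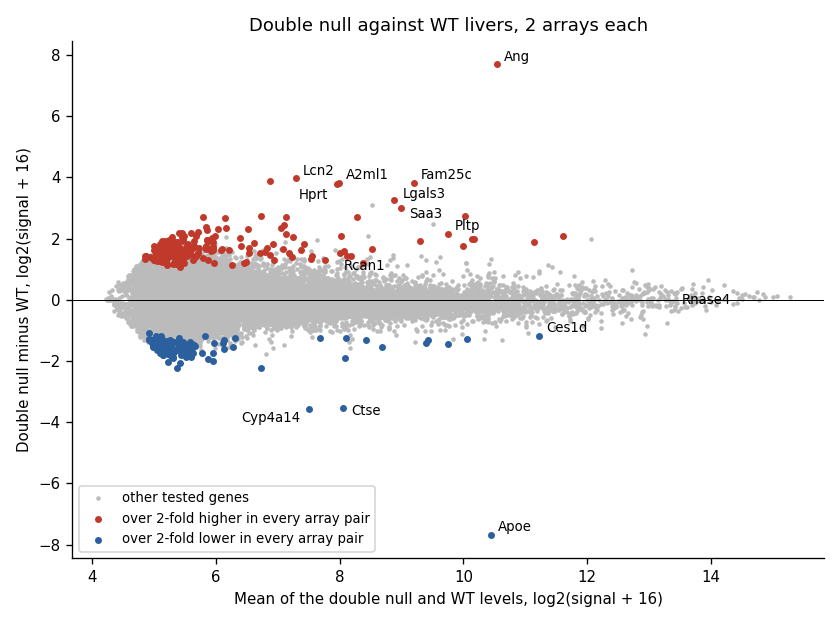
Difference between double null and WT livers on the log2(signal + 16) scale (vertical axis) against the mean level of both genotypes on the same scale (horizontal axis), 1 point per tested gene. Red points are the 229 genes over 2-fold higher and blue points the 110 genes over 2-fold lower in every pair of arrays, with Ang at 7.70 and Apoe at −7.68 far from all others.

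How many genes passed the test turned on how dim probe sets were treated. With the variance prior following the mean level, 46 genes passed as higher and 17 as lower (limma with trend). With an offset of 64 in place of 16 the counts were 20 and 3, and with only probe sets above the median on all 8 liver arrays they were 14 and 2. In all 3 settings the same 12 genes were higher: A2ml1, Ang, Cd5l, Clec7a, Fam25c, H2-Aa, Lgals3, Lpl, Lyz1, Lyz2, Pltp and Saa3. The same 2 were lower in all 3, Apoe and Clec2d. These 3 were the settings that passed more genes than the main fit. With quantile normalization or array medians made equal, 1 gene passed as higher and 1 as lower, the same counts as in the main fit. The genes that passed in all 3 settings are described in turn below.

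Ang encodes angiogenin, a secreted ribonuclease of the RNase A family that is made in the liver and drives vessel growth. It was the most raised gene. Its brightest probe set had a signal of 20982.3 and 22270.3 in double null livers, against 82.7 and 93.3 in WT livers, a ratio of the mean signals of 246. The log2 difference was 7.70 (SE 0.50, limma adjusted p = 0.00625). Both WT arrays lay far below the rest, since the same probe set had 14582.4 and 20313.8 in ApoE null livers and 8448.9 and 22375.2 in Dscr-1 null livers.

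The 3 probe sets of Ang did not move alike. A second one had 4360.7 and 5218.9 in double null livers and 394.2 and 347.0 in WT livers, a log2 difference of 3.63 (SE 0.52, limma adjusted p = 0.396). The third had 889.9 and 1185.0 in double null livers and 1067.1 and 815.8 in WT livers, and these overlapped. The names of the first and the second end in _s_at and _x_at, the array's marks for probes that can match several transcripts, so the value is uncertain as a measure of Ang alone. When all probe sets of a gene were averaged, Ang had a log2 difference of 3.82 and no longer passed (limma adjusted p = 0.174). With an offset of 1, adjusted p was 0.116, and without any 1 of the 4 double null and WT arrays it was 0.125 to 0.176 (limma), with the difference at 7.63 to 7.78.

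Rnase4, which encodes another secreted ribonuclease, lies next to Ang, and the RefSeq table gives the genes a common start with the same promoter, and Rnase4 a further start downstream. Rnase4 had a signal of 9386.8 and 10997.9 in double null livers and 12359.4 and 11506.1 in WT livers, a log2 difference of −0.23 (SE 0.36, limma adjusted p = 0.969). Rnase4 was thus bright in both genotypes, whereas the leading Ang probe set was far lower in WT livers. The 250 bases before the common start (RefSeq, GRCm38.p6, chr14:51090827-51091076, plus strand) are shown because the 2 genes with such different readings have them in common.
Ang and Rnase4: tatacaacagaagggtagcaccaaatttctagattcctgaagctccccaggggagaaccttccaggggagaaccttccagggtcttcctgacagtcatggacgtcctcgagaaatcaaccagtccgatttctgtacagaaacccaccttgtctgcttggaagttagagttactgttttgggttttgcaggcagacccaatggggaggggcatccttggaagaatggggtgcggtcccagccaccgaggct
None of the 3 motifs searched further below was found in these bases on either strand. Of the 9 tested genes of this family list, Ang included, 5 were higher and 4 lower.

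Several other genes of varied function were far lower in WT livers than in double null livers. Hprt, whose enzyme salvages the purines hypoxanthine and guanine, had a signal of 884.2 and 912.6 in double null livers, against 46.9 and 54.8 in WT livers (log2 difference 3.78, SE 0.91). ApoE null livers had 1018.7 and 933.3, and Dscr-1 null livers had 819.7 and 65.9, so that the second Dscr-1 null array was as low for Hprt as WT livers. The list of purine salvage and synthesis genes gave no such picture as a whole. Of 17 tested, Hprt included, 9 were higher and 8 lower, and Pnp, the nucleoside phosphorylase that supplies Hprt with substrate, had 870.8 and 939.3 in double null livers and 1817.2 and 1853.1 in WT livers.

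A2ml1, a protease inhibitor related to alpha-2-macroglobulin, had 935.2 and 940.7 in double null livers and 34.5 and 73.5 in WT livers, a log2 difference of 3.83 (SE 0.50, limma adjusted p = 0.333). Of 9 tested members of the alpha-2-macroglobulin and serpin list, A2ml1 included, 6 were higher and 3 lower, with a median of 0.10. Mug1, the bright murinoglobulin of the liver, had 8977.0 and 11516.4 in double null livers and 10847.7 and 12787.9 in WT livers. Fam25c, a gene of poorly known function, had 1939.0 and 2530.1 in double null livers and 87.3 and 221.5 in WT livers (log2 difference 3.83, SE 0.53). Rpgrip1, best known as a ciliary protein of photoreceptors, had 499.3 and 373.5 in double null livers and 29.7 and 4.6 in WT livers on its representing probe set. Its other 3 probe sets were dim in both and did not repeat the higher level, with log2 differences of −1.02, −0.02 and −1.04. On its representing probe set each of A2ml1, Fam25c and Rpgrip1 was without overlap between the genotypes. None of the leading genes but Ang passed the adjusted threshold, with adjusted p from 0.333 to 0.671 (limma).

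Ankrd12, Mmp10 and Trim34a, the last described further below, were of the leading 12 but read only about 100 in double null livers and were dimmer still in WT livers. Ankrd12 had 130.4 and 129.4 in double null livers and 10.8 and 16.1 in WT livers, but its 4 other probe sets differed by 0.08 to 0.81. Mmp10, a matrix protease, had 81.0 and 93.1 in double null livers and 6.0 and 6.9 in WT livers.

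**Figure D2:**
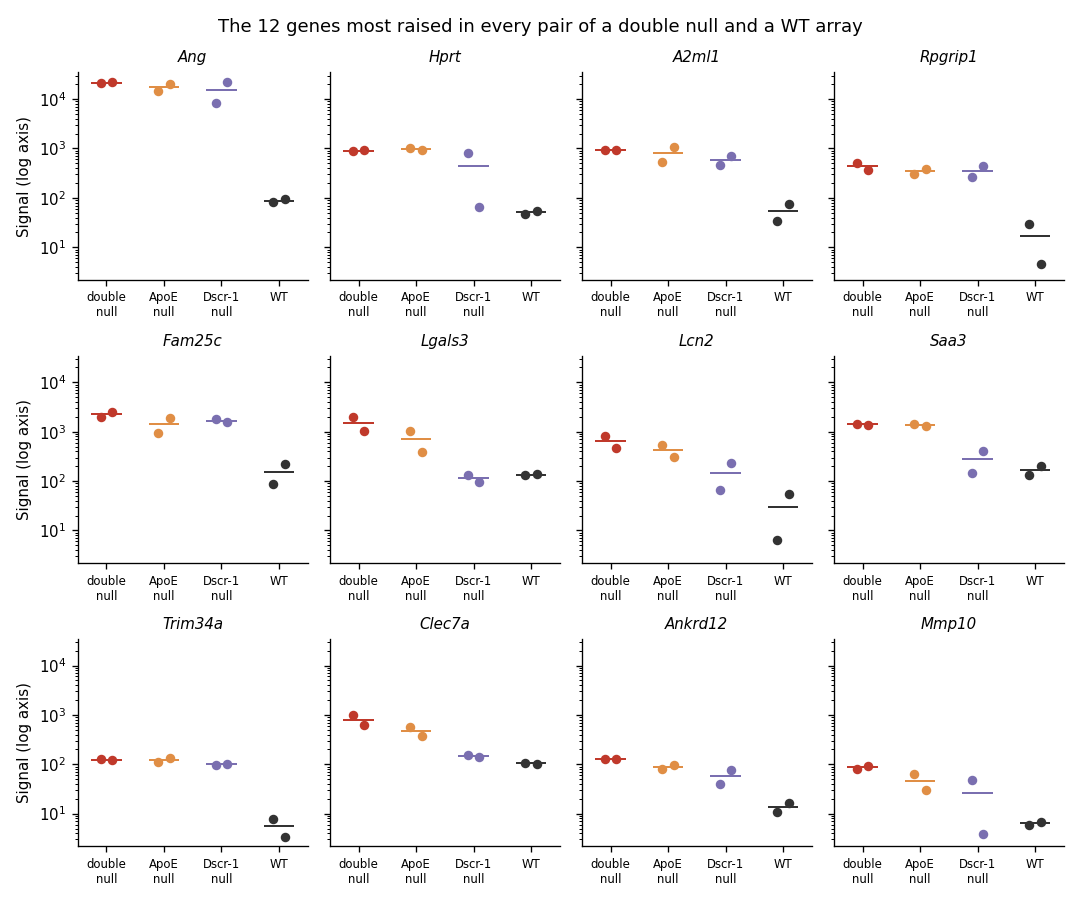
Signal on a log axis in each of the 8 liver arrays for the 12 genes most raised in every pair of a double null and a WT array, with 2 points and their mean (line) for double null, ApoE null, Dscr-1 null and WT livers. In every panel both double null points lie above both WT points, from Ang at 20982.3 and 22270.3 in double null livers and 82.7 and 93.3 in WT livers to Mmp10 at 81.0 and 93.1 in double null livers and 6.0 and 6.9 in WT livers.

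Genes of macrophages were higher in double null livers. Of 29 tested macrophage and Kupffer cell markers 23 were higher, 17 (58.6%) without overlap between the arrays and 13 (44.8%) with an unadjusted p under 0.05 in the limma fit, beside 19.7% and 3.51% of all tested genes. None passed after adjustment, and the median difference was 0.97, beside 0.01 over all genes. No marker was lower without overlap. Summed over the 30 markers on the array, the signal was 29950.5 and 19614.6 in double null livers and 8580.5 and 10665.6 in WT livers, and no marker was at 0. More cells of a type and more RNA per cell cannot be told apart in these bulk livers.

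Lgals3, the galectin-3 of activated macrophages, had a signal of 2008.3 and 1051.0 in double null livers, against 132.5 and 138.9 in WT livers, a log2 difference of 3.28 (SE 0.55, limma adjusted p = 0.658). It passed under each of the 3 settings named above, with adjusted p between 1.83e-07 and 0.0105 (limma). Clec7a, the beta-glucan receptor dectin-1, had 975.7 and 628.4 in double null livers and 108.4 and 102.9 in WT livers. Lyz2, the lysozyme of myeloid cells, had 1557.0 and 932.7 in double null livers and 333.1 and 287.5 in WT livers. Its duplicate Lyz1, picked after its values were seen and near-identical in sequence, had 3575.4 and 2004.3 in double null livers and 555.7 and 268.8 in WT livers. Probes of the 2 lysozyme genes may match either transcript.

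Cd5l, a secreted protein of tissue macrophages that binds lipids, had 7665.9 and 5471.1 in double null livers and 1113.9 and 2019.8 in WT livers (log2 difference 2.10, SE 0.46). Marco, a scavenger receptor, had 360.7 and 181.2 in double null livers and 64.1 and 4.8 in WT livers. The complement genes C1qa, C1qb and C1qc, also Cd68, Gpnmb, Mpeg1 and Csf1r, were named after their values were seen, and had log2 differences of 1.42, 1.46, 1.31, 2.05, 2.44, 1.22 and 1.14 in that order. Some other members of this list of macrophage and Kupffer cell markers, among them 3 picked after their values were seen, did not separate the genotypes. Clec4f had 1062.9 and 748.0 in double null livers and 563.2 and 859.8 in WT livers, Vsig4 had 1017.0 and 739.3 in double null livers and 552.7 and 791.3 in WT livers, and Adgre1, which encodes the F4/80 antigen, had 163.4 and 193.8 in double null livers and 148.9 and 308.6 in WT livers. All 3 overlapped between the genotypes. Itgam, which encodes the CD11b chain of myeloid integrins, was under the filter and was not tested, with 11.9 and 4.3 in double null livers and 28.0 and 2.6 in WT livers.

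MHC class II genes, whose products present antigen to helper T cells, were higher in all 8 members tested, 7 of them (87.5%) without overlap, beside 19.7% of all tested genes, with a median of 1.29. H2-Aa had a signal of 2426.3 and 1420.3 in double null livers, against 587.8 and 485.3 in WT livers (log2 difference 1.77, SE 0.40). Its 3 further probe sets differed by 2.38, 2.20 and 1.14. H2-Eb1 had 859.2 and 379.6 in double null livers and 181.0 and 233.6 in WT livers, and Cd74, the invariant chain, had 1081.2 and 440.3 in double null livers and 292.8 and 246.1 in WT livers. As with the macrophage markers, none passed after adjustment.

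The 2 double null arrays differed from each other in these genes. Array 1 was above array 2 in 25 of the 29 macrophage markers (86.2%) and in 7 of the 8 class II genes, beside 50.8% of all tested genes. Without array 1 the median of the macrophage list was 0.82 and that of the class II list 0.76. Without array 2 these medians were 1.15 and 1.82.

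**Figure D3:**
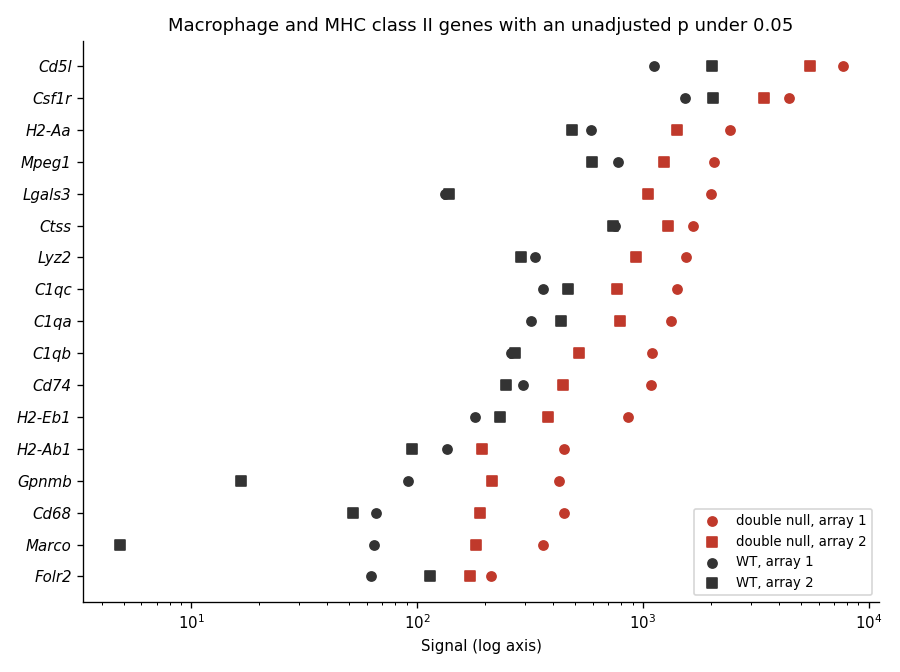
Signal on a log axis of the macrophage and MHC class II genes with an unadjusted p under 0.05, for double null (red) and WT (black) livers, array 1 as a circle and array 2 as a square. Every red symbol lies to the right of both black symbols of its gene, and the red circle lies to the right of the red square in each row, as for Lgals3 at 2008.3 and 1051.0 in double null livers and 132.5 and 138.9 in WT livers.

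Acute phase proteins, which hepatocytes and macrophages secrete in inflammation, moved unevenly. Of 23 tested 16 were higher, 9 of them (39.1%) without overlap, beside 19.7% of all tested genes, with a median of 0.16 that was 0.01 to 0.34 without 1 array. Saa3, the serum amyloid A of macrophages and adipose tissue, had 1452.1 and 1396.7 in double null livers, against 131.3 and 203.1 in WT livers (log2 difference 3.0, SE 0.50), and passed in the 3 settings named above. Lcn2, which encodes lipocalin-2 and sequesters bacterial siderophores, had 812.1 and 458.8 in double null livers and 6.5 and 53.8 in WT livers. Orm2, an orosomucoid, had 275.2 and 282.0 in double null livers and 87.1 and 114.2 in WT livers. The hepatocyte genes Saa1 and Saa2 varied widely, with 6442.7 and 11282.4 for Saa1 in double null livers and 686.5 and 6559.2 in WT livers, so that its groups overlapped.

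Neutrophil markers were dim. Of 10 tested 8 were higher, 4 (40.0%) without overlap, beside 19.7% of all tested genes. Their median of 0.69 was 0.29 without WT array 1, and the summed signal of the 11 on the array was 730.8 and 600.0 in double null livers and 289.8 and 358.8 in WT livers. S100a9, a subunit of calprotectin, had 172.4 and 102.9 in double null livers and 45.7 and 33.6 in WT livers. Among 28 chemokines, cytokines and adhesion genes 19 were higher, 13 (46.4%) without overlap, and 8 had an unadjusted p under 0.05 with a higher level, beside 19.7% and 3.51% of all tested genes, with a median of 0.54. Casp1, the protease that activates interleukin-1, had 85.5 and 93.1 in double null livers and 6.9 and 10.5 in WT livers. Vcam1, an adhesion molecule for leukocytes, had 376.8 and 206.2 in double null livers and 108.9 and 52.2 in WT livers, and Il1r1, the interleukin-1 receptor, had 241.7 and 440.5 in double null livers and 135.4 and 98.6 in WT livers. The part of macrophage and neutrophil RNA in these values was not tested.

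Interferon response genes were split. Of 22 tested 16 were higher, 8 of them (36.4%) without overlap, beside 19.7% of all tested genes, and the median was 0.30. Trim34a, a TRIM family ubiquitin ligase, stood out with 127.5 and 122.0 in double null livers, against 7.8 and 3.4 in WT livers (log2 difference 2.71, SE 0.35, limma adjusted p = 0.333). Oasl2 had 184.1 and 69.5 in double null livers and 31.3 and 26.2 in WT livers, and Gbp2, a guanylate binding protein induced by interferon-gamma, had 226.3 and 99.3 in double null livers and 42.0 and 46.9 in WT livers. Oas1a, a sensor of double-stranded RNA, had 274.2 and 262.4 in double null livers and 122.8 and 133.4 in WT livers. Other well-known members lay near 0, among them Ifit1 at 0.02, Irf7 at 0.09 and Usp18 at −0.04 on the log2 scale, all 3 picked after their values were seen. Irf1, the transcription factor, had 277.9 and 187.0 in double null livers and 145.7 and 196.6 in WT livers, with overlap. Of 11 genes of MHC class I and the immunoproteasome 9 were higher, 6 (54.5%) without overlap, beside 19.7% of all tested genes, with a median of 0.48. Without double null array 1 the median of the interferon list was −0.02 and that of the class I list 0.19, and without WT array 2 the class I median was 0.21.

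Promoters were searched for 3 motifs on both strands of the 300 bases around the first start that RefSeq gives each gene. The core of the interferon response element, GAAANNGAAA, was in 12 of the 179 promoters on hand for the 229 raised genes (6.7%), against 351 of 11838 for all tested genes (2.97%) and 943 of 27025 in the whole table (3.49%). The gamma activated site, TTCNNNGAA, was in 7.26% of the raised genes' promoters and 7.12% of all tested. The NFAT core, GGAAAA, was in 16.2% and 21.1% of the same groups. The windows below hold the interferon element of the raised genes with the largest differences. Capitals mark the 10 bases of the core as they read in the direction of the gene, so a site on the opposite strand reads TTTCNNTTTC, and each line gives 10 bases on either side. The letters GAAA of this core also lie in the NFAT core, so a base run can count for both.
Saa3: gttatcttctGAAAGAGAAAttatgggtaa
Trim34a: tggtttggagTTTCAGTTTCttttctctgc
Trim30d: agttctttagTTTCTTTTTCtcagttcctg
Slfn5: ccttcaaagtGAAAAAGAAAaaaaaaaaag
Calhm6: tgaaaaaaaaGAAAGTGAAAcccggaaggg
Trim30a: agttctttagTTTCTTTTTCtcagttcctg
Ifi207: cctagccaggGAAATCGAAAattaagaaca
The Saa3 window is chr7:46715782-46715811 on the minus strand, Trim34a chr7:104244457-104244486 on the plus strand, Trim30d chr7:104507871-104507900 and Trim30a chr7:104465210-104465239 on the minus strand, Slfn5 chr11:82951937-82951966 on the plus strand, and Calhm6 chr10:34128017-34128046 and Ifi207 chr1:173741831-173741860 on the minus strand (GRCm38.p6). Trim30a and Trim30d, which lie near Trim34a, have the same 30 bases, and probes may not tell them apart. Trim30a had a signal of 374.5 and 253.6 in double null livers, against 96.4 and 58.3 in WT livers, and Trim30d had 170.5 and 72.2 in double null livers and 18.2 and 4.2 in WT livers. In ApoE null livers Trim30a had 239.1 and 290.8 and Trim30d 125.6 and 99.6. In Dscr-1 null livers Trim30a had 259.8 and 180.4 and Trim30d 117.4 and 111.0. On these probe sets, as for Trim34a, only the WT arrays were low. A second Trim30a probe set above the filter did not repeat this. It had 103.1 and 92.6 in double null livers and 95.0 and 53.1 in ApoE null livers. In Dscr-1 null livers it had 22.5 and 57.5, and in WT livers 69.0 and 54.2. Calhm6, Ifi207, Slfn5, Trim30a and Trim30d were picked after their values were seen.

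Among genes of lipoprotein handling 2 members stood apart. Of 17 tested apolipoprotein and lipoprotein genes other than Apoe 9 were higher and 8 lower, with a median of 0.06. Pltp, the phospholipid transfer protein that remodels high-density lipoprotein, had 2120.8 and 1537.7 in double null livers, against 457.4 and 332.5 in WT livers (log2 difference 2.17, SE 0.39, limma adjusted p = 0.658), and its second probe set differed by 1.86. Lpl, lipoprotein lipase, which splits the triglyceride of lipoproteins and is little made by adult hepatocytes, had 2572.4 and 2008.6 in double null livers and 512.5 and 627.0 in WT livers (log2 difference 1.97, SE 0.36), with 1.79 for its second probe set. Both passed in the 3 settings named above. Lpl is made by macrophages and adipocytes, and adipocyte markers were dim. The summed signal of those on the array was 109.3 and 96.8 in double null livers and 12.5 and 32.2 in WT livers. Adipoq, which encodes adiponectin, had 65.4 and 30.9 in double null livers and 1.8 and 3.3 in WT livers. It passed the filter only through a double null array and a Dscr-1 null array. Retn, the other marker tested, passed only through its double null signals of 39.9 and 47.3. The direction of these markers was thus partly set by the filter, and they are no support for a source of Lpl. Whether such cells carried the Lpl and Pltp signal was not tested.

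Apob, which encodes the structural protein of very-low-density lipoprotein, had 3592.1 and 9753.2 in double null livers and 15476.0 and 7484.4 in WT livers, with overlap. Fabp5, a fatty acid carrier picked after its values were seen, had 3677.2 and 5195.8 in double null livers and 1260.5 and 1059.5 in WT livers. Of 13 lipid droplet and lipolysis genes 10 were higher, 6 (46.2%) without overlap, beside 19.7% of all tested genes, with a median of 0.49, although none had an unadjusted p under 0.05. Plin3, a coat protein of droplets, had 379.2 and 314.2 in double null livers and 173.1 and 193.8 in WT livers, whereas Plin2, the main droplet coat of hepatocytes, had 4437.4 and 3216.5 in double null livers and 3420.2 and 3828.2 in WT livers.

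Cholesterol synthesis was divided. Of 22 tested genes of synthesis and SREBP2 control 10 were higher and 12 lower, 5 (22.7%) and 9 (40.9%) without overlap, beside 19.7% and 18.6% of all tested genes. The median was −0.15, and 0.05 without double null array 2, and none had an unadjusted p under 0.05. Srebf2, which encodes SREBP2, had 171.4 and 60.9 in double null livers and 93.7 and 149.0 in WT livers. Sqle, the epoxidase that commits squalene to sterol, had 95.9 and 112.4 in double null livers and 49.8 and 37.3 in WT livers, whereas Insig2, which retains the SREBP precursor in the endoplasmic reticulum, had 650.3 and 501.8 in double null livers and 967.8 and 1030.0 in WT livers. Lipoprotein uptake (7 tested, 4 higher, median 0.09) and cholesterol efflux and storage (9 tested, 5 higher, median 0.09) lay near the median of all genes.

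Ranked by the smallest of the 4 differences between arrays, Ctse, which encodes the aspartic protease cathepsin E, came next to Apoe among genes that were lower. Its representing probe set had a signal of 68.4 and 56.3 in double null livers, against 744.8 and 1070.1 in WT livers, a log2 difference of −3.54 (SE 0.49, limma adjusted p = 0.379). The other probe set of Ctse went the other way, with 78.1 and 119.1 in double null livers and 55.2 and 52.1 in WT livers. The single null livers were also low on the first one, with 15.9 and 58.2 in ApoE null and 86.6 and 53 in Dscr-1 null livers. Of 14 tested lysosomal genes 8 were higher and 6 lower. The 10 remaining genes of the leading 12 on this side, which are Tac4, Ddx25, Sec1, 4931403G20Rik, Klhl40, Alox12e, Trim68, Evc, Slc5a7 and Lrch2, had WT signals of only 44.1 to 78.7 and double null signals of 1.8 to 6.5. Clec2d, a C-type lectin that binds a receptor of natural killer cells and was picked after its values were seen, had 106.3 and 142.4 in double null livers and 457.5 and 567.2 in WT livers (log2 difference −1.92, SE 0.40).

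Genes of fatty acid oxidation tended downward. Of 21 tested targets of PPAR-alpha and enzymes of oxidation 15 were lower, 10 of them (47.6%) without overlap, beside 18.6% of all tested genes. In the limma fit 4 were lower with an unadjusted p under 0.05, beside 1.78% of all tested genes, and the median was −0.33. Without double null array 2 the median was −0.13. Ech1, an isomerase of unsaturated acyl-CoA, had 1188.1 and 819.2 in double null livers, against 2399.7 and 2578.6 in WT livers (log2 difference −1.32, SE 0.38, limma adjusted p = 0.671). Ehhadh, the peroxisomal bifunctional enzyme, had 1658.1 and 1252.4 in double null livers and 3260.7 and 2869.5 in WT livers. Cyp4a14, which hydroxylates fatty acids, had 55.6 and 22.7 in double null livers, but its WT signals of 144.0 and 2380.8 were themselves far apart. Fgf21, a hormone that the fasted liver secretes, had 22.3 and 8.3 in double null livers and 82.3 and 55.4 in WT livers. Some mitochondrial members lay nearer 0, with log2 differences of −0.45 for Hadha, −0.37 for Acadm and 0.25 for Cpt1a, named after their values were seen.

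Of the 19 brighter genes on this side, 6 more were picked after their values were seen. Acnat2, an acyl-CoA amino acid transferase, had 62.0 and 15.0 in double null livers and 233.6 and 197.1 in WT livers. Acot3, a peroxisomal thioesterase, had 22.2 and 8.7 in double null livers and 148.3 and 76.4 in WT livers. Hacl1, which shortens branched fatty acids, had 656.6 and 690.1 in double null livers and 1635.1 and 1672.3 in WT livers. Nudt19, a hydrolase of CoA, had 191.3 and 208.9 in double null livers and 532.5 and 520.3 in WT livers, and its second probe set was lower by a log2 difference of −1.10. The replicate arrays of Hacl1 and Nudt19 lay close together within each genotype. Ces1d, a carboxylesterase that hydrolyses triglyceride, had 1633.6 and 1535.2 in double null livers and 3583.8 and 3610.3 in WT livers, but its 2 other probe sets differed by only −0.58 and −0.03 and overlapped between the genotypes. Bckdhb, a subunit of the branched-chain keto acid dehydrogenase, had 485.7 and 529.7 in double null livers and 1738.8 and 1116.4 in WT livers.

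**Figure D4:**
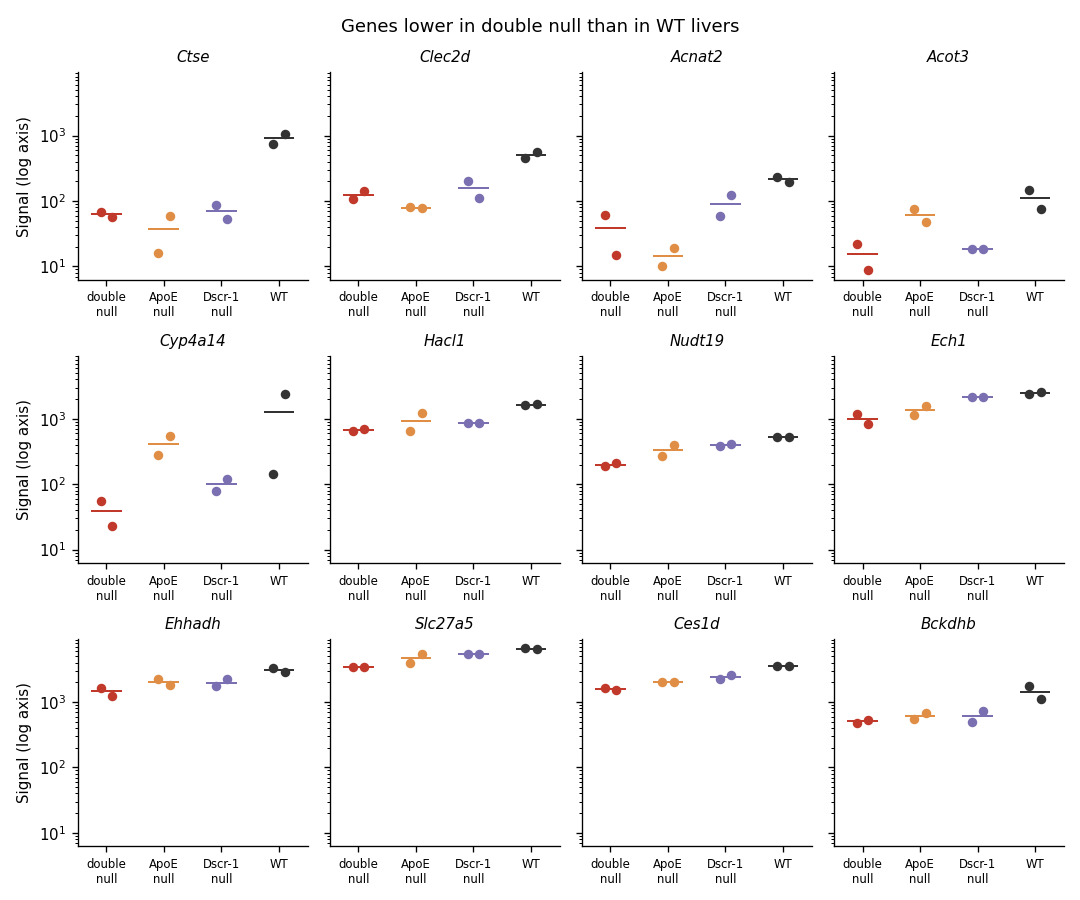
Signal on a log axis in each of the 8 liver arrays for 12 genes that were lower in double null livers, with 2 points and their mean (line) for double null, ApoE null, Dscr-1 null and WT livers. Both double null points lie below both WT points in every panel, as for Ech1 at 1188.1 and 819.2 in double null livers and 2399.7 and 2578.6 in WT livers.

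Other metabolic lists shifted by smaller amounts. Of 20 bile acid genes 14 were lower, 8 (40.0%) without overlap, beside 18.6% of all tested genes, and none was higher without overlap, with a median of −0.25. Slc27a5, which activates bile acids for conjugation, had 3417.5 and 3489.9 in double null livers, against 6645.5 and 6453.3 in WT livers (log2 difference −0.92, SE 0.35). Cyp7a1, whose hydroxylase limits the rate at which cholesterol enters bile acids, had 1457.0 and 1727.2 in double null livers, which overlapped 4304.8 and 1628.6 in WT livers. Of 21 genes of fatty acid and triglyceride synthesis 15 were lower, 4 (19.0%) without overlap, near the 18.6% of all tested genes. Their median of −0.26 was lost without double null array 2, where it was −0.0. Me1, the malic enzyme that supplies NADPH, had 1201.0 and 547.7 in double null livers and 1602.9 and 2450.3 in WT livers, and its other probe set was lower by −2.05. Lpin1, a phosphatidate phosphatase, went against the list with 1711.6 and 1460.2 in double null livers and 1060.5 and 436.8 in WT livers. Of 23 respiratory chain genes 18 were lower, 12 (52.2%) without overlap, beside 18.6% of all tested genes. The median was only −0.17, and −0.28 to −0.10 without 1 array, and none had an unadjusted p under 0.05.

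Stress genes gave medians near 0. Of 20 genes of the unfolded protein response 13 were higher and 7 lower, with a median of 0.10. Xbp1 had a log2 difference of 0.39, Atf4 of −0.06 and Atf6 of −0.29, and Ppp1r15a, the phosphatase subunit that ends translational arrest, had 68.6 and 75.3 in double null livers and 23.7 and 32.3 in WT livers. Of 19 oxidative defence genes 9 were higher and 10 lower, with a median of −0.01. Hmox1, which breaks down haem and is strong in macrophages, had 341.1 and 128.9 in double null livers and 87.9 and 68.7 in WT livers, and Mt2, a metallothionein, had 306.6 and 249.5 in double null livers and 73.4 and 84.0 in WT livers. Of 15 p53 targets and apoptosis genes 8 were higher, with a median of 0.06, and Bcl2l11, which encodes the death factor Bim, had 486.7 and 406.4 in double null livers and 196.5 and 215.2 in WT livers, while its 3 other probe sets above the filter differed by −0.06 to 0.41.

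The remaining lists lay between these. Of 21 proliferation genes 13 were higher, 8 (38.1%) without overlap, beside 19.7% of all tested genes. Their median of 0.20 was 0.11 to 0.66 without 1 array, the highest without double null array 2, and Mcm6, a helicase subunit of replication, had 82.5 and 75.5 in double null livers and 26.5 and 23.9 in WT livers. Of 21 stellate cell and matrix genes 14 were higher with a median of 0.17, and Vim, the intermediate filament of mesenchymal cells, had 389.7 and 254.3 in double null livers and 171.6 and 108.4 in WT livers. Endothelial markers (12 tested, 6 higher, median −0.03) and lymphocyte markers (11 tested, 7 higher, median 0.23) showed no common direction. Gluconeogenesis and insulin response (14 tested, 8 higher), the circadian clock (16 tested, 6 higher), xenobiotic metabolism (13 tested, 5 higher) and sex-biased genes (10 tested, 7 higher) had medians of 0.14, −0.06, −0.16 and 0.09 in that order. Biliary (5 tested), erythroid (3), adipocyte (2) and pancreatic (3) markers were too few or too dim for more than their medians of 0.29, 0.65, 1.43 and −0.43. The adipocyte median includes Retn, which passed the filter only through the double null arrays.

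**Figure D5:**
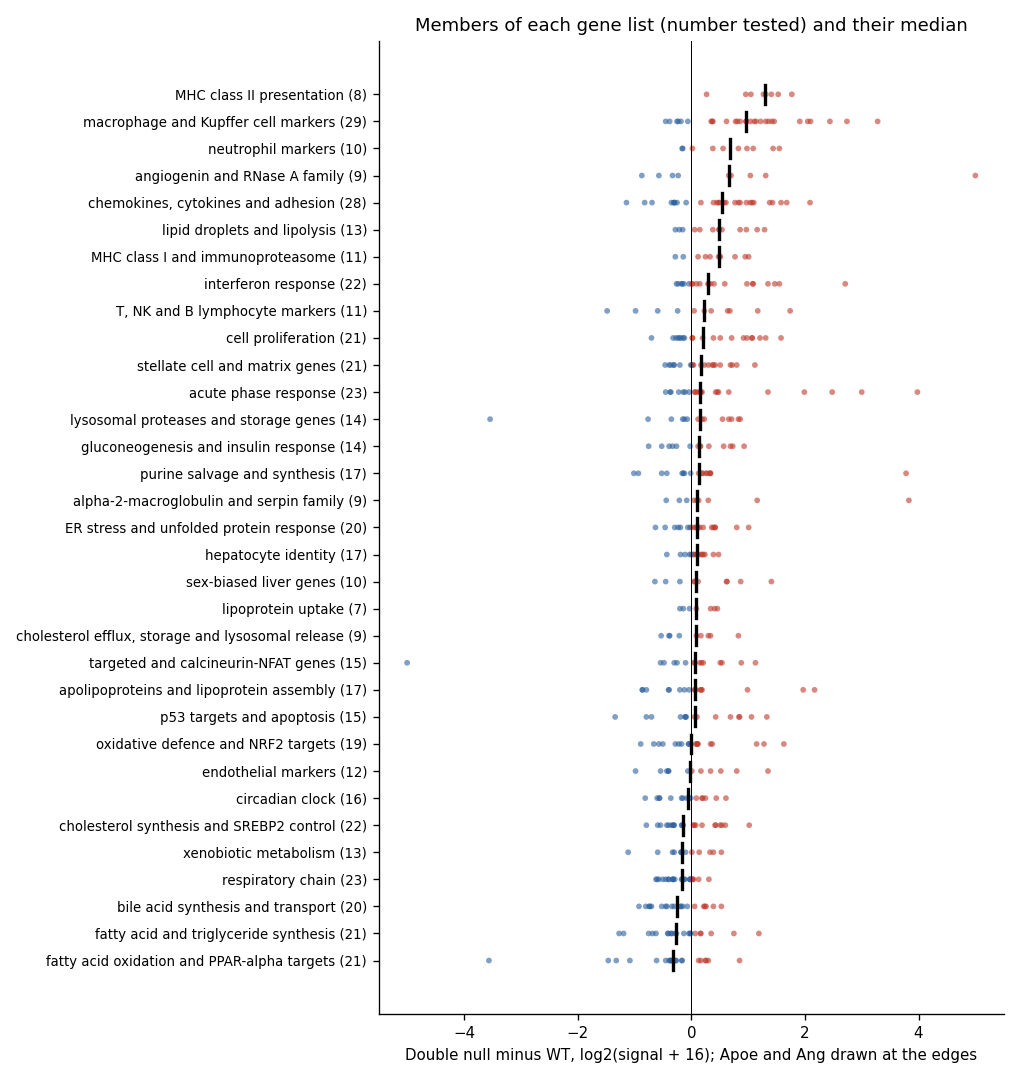
Log2 differences of double null minus WT livers for the members of each gene list with at least 7 tested genes (number in brackets), red above 0 and blue below, and the list's median as a black bar. Apoe and Ang lie outside the scale and are drawn at its edges. The medians run from 1.29 for MHC class II presentation to −0.33 for fatty acid oxidation.

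Set beside the single nulls, double null livers differed from ApoE null livers in 0 genes after adjustment (limma), with 774 genes (5.24%) at an unadjusted p under 0.05 and a lowest adjusted p of 0.586. Against Dscr-1 null livers only Apoe passed (log2 difference −7.73), and 638 genes (4.32%) had an unadjusted p under 0.05. The interaction, which asks whether the 2 losses together differ from the sum of each, passed in 0 genes, with 634 (4.3%) at an unadjusted p under 0.05. It was −6.72 for Ang (limma unadjusted p = 1.44e-05, adjusted p = 0.461) and 4.12 for Ctse (limma unadjusted p = 0.000398, adjusted p = 0.755). In both genes only the WT arrays stood apart from the rest. These comparisons share arrays, so the values are given side by side. Lgals3 had 2008.3 and 1051.0 in double null, 1044.2 and 387.8 in ApoE null, 131.2 and 95.1 in Dscr-1 null, and 132.5 and 138.9 in WT livers. Pltp had 2120.8 and 1537.7 in double null, 1042.8 and 754.7 in ApoE null, 493.1 and 413.2 in Dscr-1 null, and 457.4 and 332.5 in WT livers. A2ml1 had 935.2 and 940.7 in double null, 521.9 and 1083.7 in ApoE null, 460.9 and 717.5 in Dscr-1 null, and 34.5 and 73.5 in WT livers. In Lgals3 and Pltp the Dscr-1 null arrays lay close to WT, and in A2ml1 only the WT arrays were low.

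Over whole lists the median of the macrophage markers was 0.97 in double null, 0.75 in ApoE null and −0.11 in Dscr-1 null livers, each relative to WT. For MHC class II genes these medians were 1.29, 0.54 and 0.07, and for fatty acid oxidation −0.33, −0.12 and −0.15. The lists differed in this respect. For chemokines, cytokines and adhesion genes the medians were 0.54, 0.25 and 0.10 in the same order. ApoE null livers lay further from WT in bile acid genes (−0.25, −0.33 and −0.13) and respiratory chain genes (−0.17, −0.29 and −0.10). The same held for interferon response genes (0.30, 0.42 and −0.06) and proliferation genes (0.20, 0.57 and −0.10). Directly against ApoE null livers the macrophage markers of double null livers had a median of 0.52 and the class II genes 0.74. No member of either list passed there.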

How the data were processed

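Liver RNA was hybridized to 8 Affymetrix Mouse Genome 430 2.0 arrays, 2 per genotype. The authors computed signal intensities on a linear scale with the GeneChip Operating Software and set the average of each array to 100, and these deposited intensities were used as given. Transcriptome Analysis Console is named in the submitters' processing notes, with no version. The deposited aortic values are on a log2 scale and were not used (4 arrays). No comparison columns were used. Arrays carry no read depth, so their number limits the precision.

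Of 45101 probe sets, 64 control probe sets were set aside. Of the rest 34945 had 1 gene in the platform annotation, 932 several and 9160 none, and 34741 were matched to RefSeq by Entrez identifier. An offset of 16 was added before log2. Probe sets above their array's median on at least 2 of the 8 liver arrays entered a limma 3.58.1 fit (R 4.3.3, lmFit and eBayes, a mean per genotype, 4 residual degrees of freedom), with two-sided p adjusted over all probe sets by Benjamini-Hochberg. A gene was represented by its brightest probe set. The fit was tested on simulated data. An exact permutation test of 2 against 2 arrays cannot reach the threshold and was not used.

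Genes named were Apoe and Rcan1, those past the threshold, the 12 most raised and 12 most lowered by the smallest difference between arrays, up to 4 per list with the lowest p, the neighbours of Apoe, Rcan1 and Ang, and genes the study ties to liver, some of which are not reported here. Other genes are marked as picked. The comparison and the gene lists were chosen with earlier results of these data known. Alternatives were the offset, quantile or median normalization, the filter, the mean of a gene's probe sets, a trended prior, the 4 arrays alone, a replicate block and leaving out each array. Array numbers did not pair arrays of different genotypes, since their deviations correlated at −0.00155 to 0.0293.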

Additional observations from a re-analysis of the deposited data

Results flagged for a closer look

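For 6 named genes the arrays moved in opposite directions in the absence of Dscr-1 on the 2 ApoE backgrounds: the double null arrays lay all above or all below the ApoE null arrays, while the Dscr-1 null arrays lay on the other side of the WT arrays. The difference of the differences, fitted as an interaction in limma over all liver arrays, was −2.09 on the log2 scale for Hprt (unadjusted p = 0.144, adjusted p = 1.0). In Hprt the contrast rests on 1 Dscr-1 null array at 819.7, its partner being at 65.9. The interaction was 1.41 for Lgals3 (unadjusted p = 0.105, adjusted p = 0.994), 0.66 for Rnase4 (unadjusted p = 0.229, adjusted p = 1.0) and −1.22 for Plin2 (unadjusted p = 0.0463, adjusted p = 0.902). It was 2.30 for S100a9 (unadjusted p = 0.0045, limma adjusted p = 0.755) and 2.20 for Clec2d (unadjusted p = 0.00498, limma adjusted p = 0.755). None passed after adjustment. How many of all tested genes have this pattern was not counted, so the number of such genes is no result about them. For Lgals3 the Dscr-1 null arrays, at 131.2 and 95.1, lay close to the WT arrays, at 132.5 and 138.9. S100a9 had 172.4 and 102.9 in double null, 39.4 and 69.9 in ApoE null, 9.4 and 7.5 in Dscr-1 null, and 45.7 and 33.6 in WT livers.

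Probe sets with no gene in the annotation stood outside the gene counts. Of 5418 tested none passed. Over 2-fold in every pair, 154 were higher and 75 lower, beside 229 and 110 of the 14758 tested genes (1.55% and 0.745%). The 689 probe sets of several genes added 10 and 6. The most raised by the size rule had a signal of 197.8 and 152.5 in double null livers, against 6.0 and 3.2 in WT livers, a log2 difference of 3.21. The next had 112.7 and 101.0 in double null livers and 11.6 and 9.5 in WT livers, a log2 difference of 2.21. The most lowered had 3.3 and 3.6 in double null livers and 76.6 and 53.9 in WT livers, a log2 difference of −2.05, and the next on that side had 6.9 and 5.6 in double null livers and 52.6 and 88.4 in WT livers, a log2 difference of −1.93.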

How the results depend on the processing

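Between double null and WT livers the count of genes past the threshold in limma was 1 higher and 1 lower. It was 20 and 3 with an offset of 64, 14 and 2 above the median on all 8 arrays, and 46 and 17 with a trended prior. No gene was higher with an offset of 1 or with probe sets averaged (0 each), and without 1 array the counts ranged from 0 to 1 on each side. Over 2-fold in every pair there were 229 genes higher and 110 lower, against 458 and 264 with an offset of 1, 35 and 10 with an offset of 64, 37 and 12 above the median on all 8 arrays, 188 and 146 with quantile normalization, 169 and 163 with the median shift, and 556 to 817 and 350 to 574 without 1 array, where fewer pairs have to agree. Against Dscr-1 null livers 1 gene passed, with 9, 3 and 22 at an offset of 64, above the median on all 8 arrays and with the trend, and 0 to 1 without 1 array. The interaction gave 0 genes, and 2, 1 and 5 in those settings. Against ApoE null livers the count was 0 in every setting run. With the replicate block the counts were 1 higher and 1 lower, with 750 genes at an unadjusted p under 0.05 in place of 781, and no other call changed. Scaling by the array median shifted the median of all genes to −0.106, with 41.2% of genes higher.

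Of the 108 genes named, 12 changed sign in at least 1 setting, among them Nfatc1 and Nfatc2 with main values of −0.54 and 0.51. With probe sets averaged the log2 difference was 0.17 for Nfatc1, −0.13 for Nfatc2, −0.36 for Nfatc3, 0.06 for Srebf2 and 0.24 for Atf4. With the median shift it was −0.05 for Plin2, −0.02 for Alb, −0.09 for Ifit1 and −0.03 for Irf7, and with quantile normalization −0.04 for Alb and 0.02 for Atf4. Leaving out 1 array in turn gave −0.74 to 0.23 for Adgre1, −0.17 to 0.29 for Plin2, −0.11 to 0.31 for Alb, −0.26 to 0.19 for Apoc1, −0.36 to 0.41 for Ifit1, −0.25 to 0.42 for Irf7, −0.35 to 0.26 for Usp18, −0.81 to 0.48 for Srebf2, −0.06 to 0.43 for Nfatc3 and −0.33 to 0.20 for Atf4. The causes of these shifts were not tested.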
